A study of Mus musculus with 44 samples.

Results

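Sensory neurons from the dorsal root ganglia of mice with 1 injured sciatic nerve were compared between the side of the injury and the uninjured side of the body. The comparison takes the 8 neuron libraries whose labels give a side: 4 from the ligated side and 4 from the opposite side, of 44 RNA sequencing libraries in the series. All 8 came from C57BL/6 mice aged 9 to 11 weeks whose sciatic nerve had been partially ligated 8 days before, so both sides belonged to operated animals. The L3 to L5 ganglia were dissociated with enzymes, and neurons were taken with a magnetic bead kit and were not fixed. The labels do not say which libraries share an animal, whether a library pools animals, or the sex of the mice. Another 12 neuron libraries of the same table served as a second comparison: 3 male and 3 female libraries from the operated side after ligation, and 3 male and 3 female libraries after a sham operation, all of the same strain, age range and day.

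After a peripheral nerve is cut or tied, the cell bodies of its neurons receive signals from the damaged axon and switch on a growth programme led by transcription factors such as Atf3 and Sox11. Growth cone and cytoskeletal genes follow, the neuropeptides made by the cell change, and some secreted factors reach microglia in the spinal cord. A partial ligation leaves some axons of the nerve untouched, so a ganglion holds injured and spared neurons side by side.

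Levels are FPKM, the fragments of a gene scaled by transcript length and library size. Differences are ligated side minus opposite side on the log2(FPKM + 1) scale with the standard error, a scale on which changes at low FPKM come out too small. A gene was called when its limma p, adjusted by Benjamini-Hochberg over 12145 genes tested, was under 0.05. Libraries of each side are named 1 to 4 in the order of the table's columns, which no label ties to animals, and the sides were tested as unpaired. The 8 libraries each had 10225 to 10930 genes at 1 FPKM or more. Library 2 of the opposite side stood apart: 1176 genes were listed at 0 there against 278 to 809 in the other 7, and its Pearson correlation with those 7 across genes was 0.812 to 0.848, while pairs among those 7 reached 0.891 to 0.957. The pan-neuronal markers were present on both sides, 17 of 18 of them in the table with a summed level of 7240 to 7980 FPKM on the ligated and 7060 to 8380 FPKM on the opposite side. Though the series' design text speaks of nociceptors, markers of large-diameter neurons were also present, at 646 to 1010 and 613 to 813 FPKM.

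Most of the genes called between the sides were higher on the ligated side. Of the genes tested, 80 were higher on the ligated side (0.659%) and 1 was lower (0.00823%), which makes 81 called genes (0.667%). Leaving out 1 library at a time gave 1 to 12 lower genes, the most without ligated library 3, where 107 were higher and 12 lower. The median difference over all genes tested was -0.01, and 9.85% of them had an unadjusted p under 0.05. Differences of the 80 ran from 1.01 to 9.56 with a median of 2.17. In 79 of them all 4 ligated libraries lay above all 4 opposite libraries, an arrangement found in 2.68% of all genes tested. Chn2, at 0 in ligated library 1, was the exception. Such separation can follow from choosing the genes on these same 8 libraries. The reverse arrangement, all 4 ligated below all 4 opposite, was found in 1.78% of all genes tested. Of the 80, 30 had a ligated mean under 10 FPKM, 39 had one from 10 to 100 FPKM and 11 had one over 100 FPKM. By annotation 75 of the 80 are protein-coding, 4 are long intergenic RNAs and 1 is a transcribed pseudogene.

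Of the 80 genes, 13 were listed at 0 in all 4 opposite libraries, with Anxa1, Npy and Cckbr the most different among them. An FPKM of exactly 0 can be a failed estimate, so such genes are described only as listed at 0 and get no fold change. In 39 of the 80 every library of both sides was above 0, and there the ratio of the mean levels ran from 2.07 to 31.0 with a median of 4.64. Without opposite library 2, which held the most zeros, 58 genes were higher and 4 were lower, and 56 of the 81 calls were shared. A fit on the 8 libraries alone called 30 genes, all higher, of which 29 were among the 81.

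**Figure D1:**
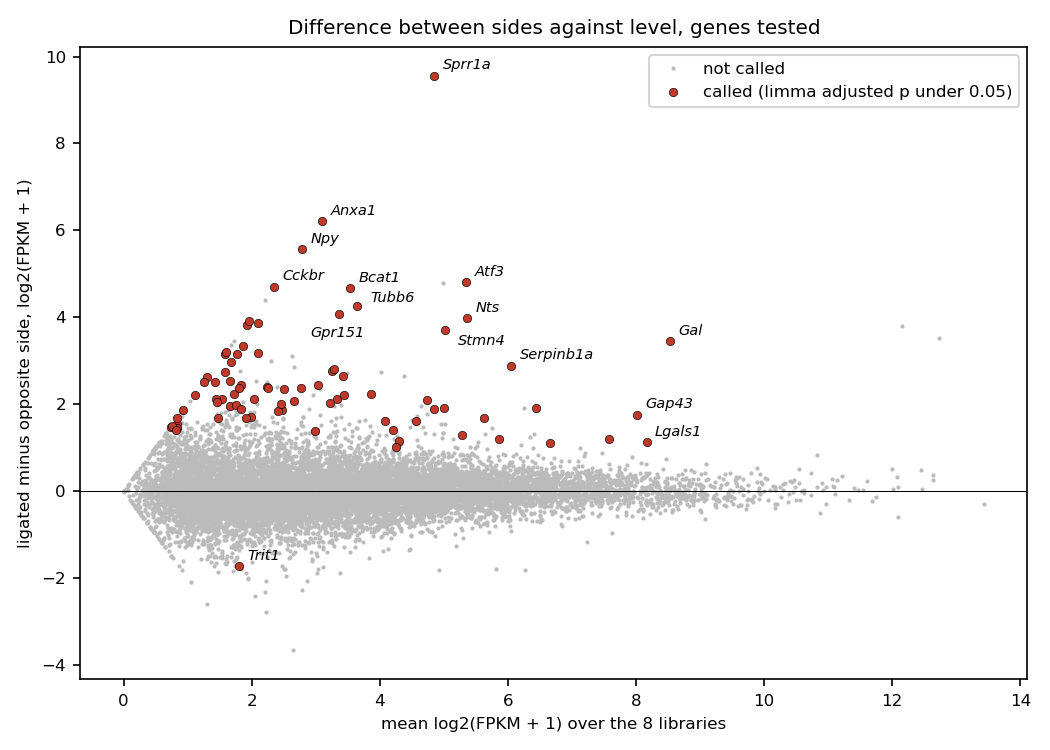
Difference between the sides on the log2(FPKM + 1) scale (vertical axis) against the mean log2(FPKM + 1) of the 8 libraries (horizontal axis), one point per gene tested. The 81 called genes are red; 80 lie above 0, led by Sprr1a at 9.56, and Trit1 at -1.73 is the single called gene below 0.

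Transcription factors of the injury response were led by Atf3 (ENSMUSG00000026628, chromosome 1, 191170296 to 191218039, GRCm38), a stress-induced factor that marks axotomised neurons. Its levels in ligated libraries 1 to 4 were 445.5, 227, 144 and 146 FPKM, and in opposite libraries 1 to 4 they were 9.93, 13.7, 4.30 and 3.09 FPKM. The sides were far apart, with library 1 the highest of the ligated side. The means were 241 ± 142 and 7.76 ± 4.96 FPKM (SD, n = 4 each), a ratio of 31.0, and the log2 difference was 4.81 ± 0.57 (limma adjusted p = 0.000103). Sox11, a developmental factor that promotes axon growth, stood at 49.1, 40.7, 17.1 and 25.5 FPKM on the ligated side and at 6.31, 4.24, 6.54 and 6.10 FPKM on the opposite side. Its difference was 2.23 ± 0.39 (limma adjusted p = 0.00502), with no overlap between sides. Klf6, a zinc finger factor linked to axon growth, was higher by 1.14 ± 0.26 (limma adjusted p = 0.042), a call lost without ligated library 1 or 4 or opposite library 2 or 4 (adjusted p 0.0771 to 0.16) and with only the 8 libraries (limma adjusted p = 0.394), only genes above 0 in every library (0.062), quantile normalization (0.0656) or array weights (0.0774).

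These 3 were the called genes among 20 injury transcription factors tested, against 0.659% of all genes tested called higher. None was called lower, and the median of the list was 0.25 against -0.01 for all genes. Differences were below 0 in 4 of the 20, and Sox4 had all 4 ligated libraries below all 4 opposite ones. This list and those below were chosen with earlier results of these data known. Jun, the partner of Atf3 in AP-1 dimers, had 10.47, 17.1, 26.5 and 22.1 FPKM on the ligated and 12.3, 5.03, 7.26 and 3.34 FPKM on the opposite side. The sides overlapped, and its difference of 1.38 ± 0.49 did not pass the test (limma adjusted p = 0.302). Atf4 and Stat3, factors regulated largely after transcription, differed by 0.12 and 0.03 and were not called.

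Because Atf3 and Jun bind AP-1 and CRE elements, the 250 bases before the RefSeq gene start (GRCm38.p6) were searched for the AP-1 letters TGANTCA and the CRE letters TGACGTCA, which are palindromic and so are read on both strands at once; a CRE does not contain an AP-1 match. Of the 80 genes, 58 had a promoter in the table, and 8 of these (13.8%) held an AP-1 match, against 5.17% of the 8775 tested genes with a promoter and 6.75% of all 32851 promoters. A CRE match was held by 2 of the 58 (3.45%), against 3.32% and 1.55%. A match describes letters and is not evidence of binding. The genes with AP-1 letters were Bcat1, Nts, Sprr1a, S100a11, Tnfaip6, Cryba2, Cyp4b1 and Gm4208, and those with CRE letters were Ucn and Orc5. In Sprr1a the 2 matches began 146 and 116 bases before the gene start, in S100a11 136 and 38, in Nts 207, in Bcat1 24, and the CRE of Ucn began 44 bases before it. The matches of Bcat1 and Orc5, though before the RefSeq start, lie inside the gene as GENCODE annotates it. The following sequences of 4 such genes, the markers Sprr1a and Nts, S100a11 with 2 matches and Ucn with a CRE, run 5′ to 3′ along the gene's strand and stop at the RefSeq start or, where that is earlier, before the first base that GENCODE transcribes, with the matches in capitals. They lie at chr3:92485896-92486131 (minus strand), chr10:102490487-102490668 (minus strand), chr3:93520246-93520487 (plus strand) and chr5:31138896-31139145 (minus strand).
Sprr1a: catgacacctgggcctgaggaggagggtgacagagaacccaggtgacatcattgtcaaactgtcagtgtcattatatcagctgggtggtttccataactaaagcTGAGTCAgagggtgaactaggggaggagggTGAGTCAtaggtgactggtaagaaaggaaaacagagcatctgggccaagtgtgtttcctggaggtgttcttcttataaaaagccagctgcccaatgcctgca
Nts: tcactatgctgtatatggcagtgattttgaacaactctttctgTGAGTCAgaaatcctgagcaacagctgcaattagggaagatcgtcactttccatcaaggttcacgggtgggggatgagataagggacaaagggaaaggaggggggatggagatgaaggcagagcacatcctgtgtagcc
S100a11: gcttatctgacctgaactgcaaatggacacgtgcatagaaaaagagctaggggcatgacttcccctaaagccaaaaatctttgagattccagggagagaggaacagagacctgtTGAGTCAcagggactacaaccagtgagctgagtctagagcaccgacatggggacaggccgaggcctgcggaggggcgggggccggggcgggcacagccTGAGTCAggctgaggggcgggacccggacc
Ucn: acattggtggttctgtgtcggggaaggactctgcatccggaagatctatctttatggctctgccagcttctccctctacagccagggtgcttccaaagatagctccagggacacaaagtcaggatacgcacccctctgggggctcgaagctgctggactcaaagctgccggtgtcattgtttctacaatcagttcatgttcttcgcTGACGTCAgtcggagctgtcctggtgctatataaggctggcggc
No match says only that these letters are not in the window; Csf1 and Gadd45a are among the genes called higher that had none.

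Genes of axon growth and the cytoskeleton contained the largest difference of all. Sprr1a (ENSMUSG00000050359, chromosome 3, 92483952 to 92485895, GRCm38) encodes a small proline-rich protein of the cornified envelope that injured neurons also make and that promotes neurite outgrowth. It had 1362, 799, 615 and 587 FPKM in ligated libraries 1 to 4, and 0.0701 and 0.144 FPKM in opposite libraries 1 and 2, while opposite libraries 3 and 4 listed it at 0. The opposite side was thus near or at 0 throughout, and the difference was 9.56 ± 0.75 (limma adjusted p = 1.04e-06). Where a side is near 0, the size of a difference depends on the 1 added to FPKM. With 0.1 or 5 added instead, Sprr1a differed by 12.4 or 7.3. Stmn4, a stathmin that binds tubulin, had 171, 149, 80.3 and 89.2 FPKM against 13.1, 5.51, 7.43 and 7.39 FPKM. Its ratio of means was 14.6 and its difference 3.71 ± 0.33 (limma adjusted p = 4.85e-06). Gap43, the growth-associated protein of growth cones, was already abundant on the opposite side, at 169, 112, 141 and 141 FPKM, and stood at 789, 467, 328 and 417.5 FPKM on the ligated side. Its ratio of means was 3.55 and its difference 1.76 ± 0.26 (limma adjusted p = 0.00116).

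Tubb6, a minor beta-tubulin, was higher by 4.26 ± 0.65 (limma adjusted p = 0.00141), from 0 to 10.7 FPKM on the opposite side to between 26.6 and 97.4 FPKM on the ligated side. Flrt3, a leucine-rich repeat membrane protein, had a difference of 1.90 ± 0.32 (limma adjusted p = 0.00364). In all 7 of 39 axon growth genes were called higher and none lower, the others being Tuba1c and Rab31. Among all genes tested 0.659% were called higher. The list median was 0.30. The list was not uniform: Stmn2, an abundant growth cone stathmin, had 1721 to 2455 FPKM on the ligated and 1138 to 1691 FPKM on the opposite side, yet its difference of 0.42 was not called (limma adjusted p = 0.416). Basp1, a membrane partner of Gap43 in growth cones, differed by -0.44 and was not called. None of 20 neurofilament and mature cytoskeleton genes was called in either direction (median -0.14), and Nefh, the heavy neurofilament, differed by 0.33 ± 0.38.

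**Figure D2:**
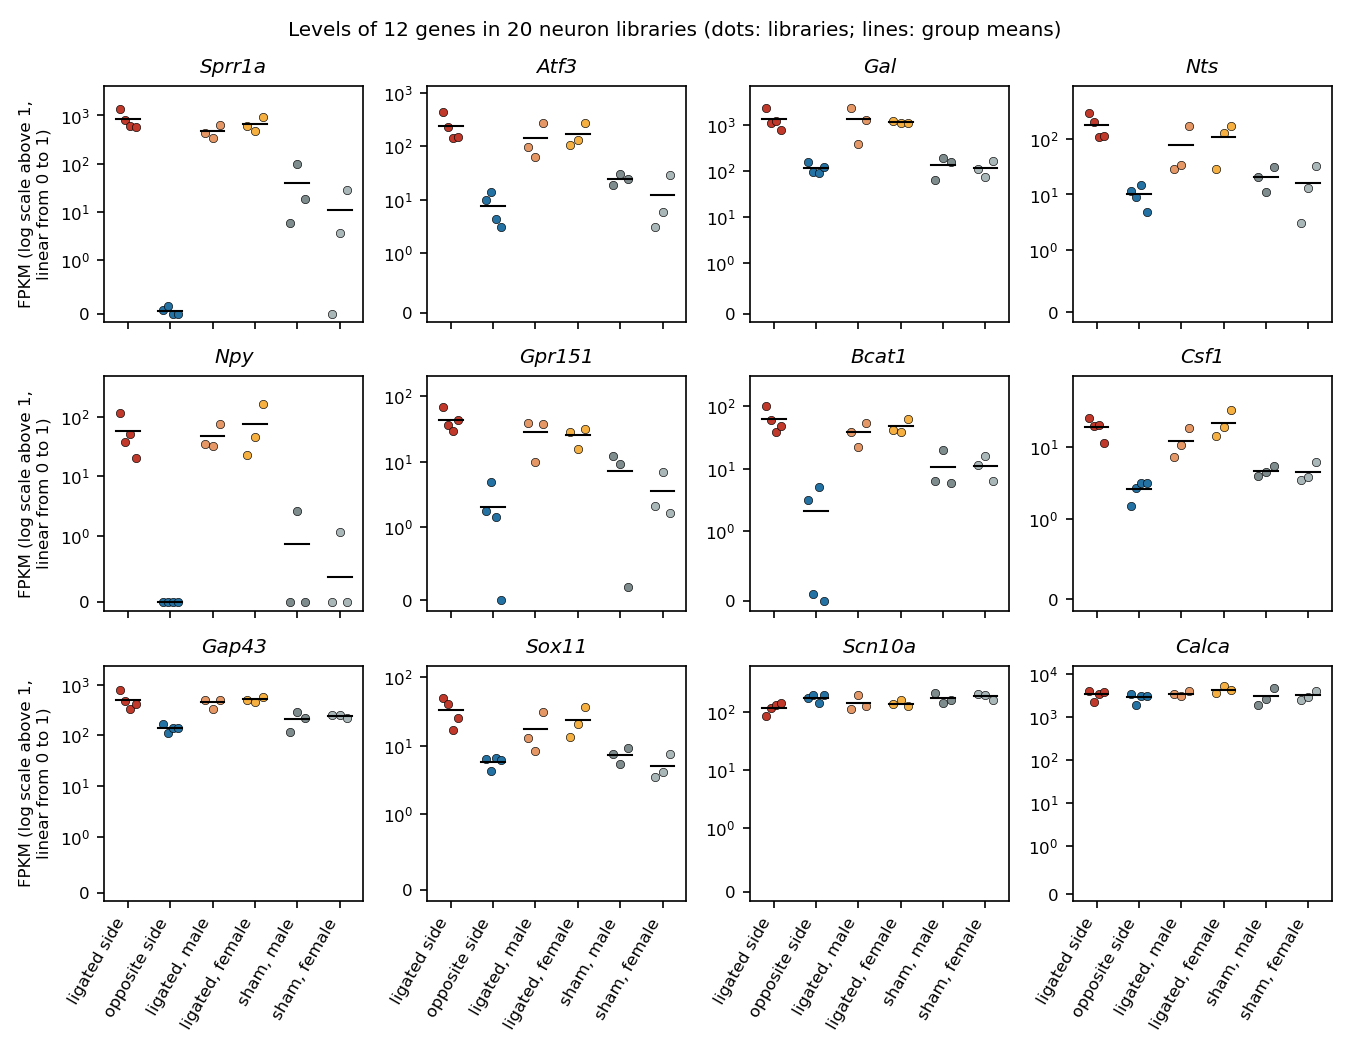
FPKM of 12 genes in the 20 neuron libraries (vertical axis logarithmic above 1 FPKM and linear from 0 to 1), with dots for libraries and lines for group means. Of the 10 called genes shown, all 4 ligated side libraries lie above all 4 opposite side libraries; Scn10a and Calca were not called.

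Neuropeptides showed some of the highest levels. Gal (ENSMUSG00000024907, chromosome 19, 3409915 to 3414544, GRCm38), the precursor of galanin, a peptide that modulates pain transmission, had 2284, 1084, 1204 and 753 FPKM on the ligated side and 151, 92.9, 89.9 and 121 FPKM on the opposite side. Every ligated library exceeded every opposite one, with a ratio of means of 11.7 and a difference of 3.45 ± 0.45 (limma adjusted p = 0.000211). Npy (ENSMUSG00000029819, chromosome 6, 49822710 to 49829507, GRCm38), the precursor of neuropeptide Y, had 117, 38.0, 51.2 and 20.2 FPKM on the ligated side and was listed at 0 in all 4 opposite libraries (difference 5.57 ± 0.57, limma adjusted p = 1.51e-05). Nts (ENSMUSG00000019890, chromosome 10, 102481756 to 102490486, GRCm38), the precursor of neurotensin, had 293, 196, 109 and 110 FPKM against 11.7, 9.00, 14.5 and 4.87 FPKM. Its ratio of means was 17.7 and its difference 3.98 ± 0.65 (limma adjusted p = 0.00293).

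These were the 3 called of 16 neuropeptides tested, against 0.659% of all genes tested called higher. None was called lower, and the list median was 0.21. Differences were below 0 in 5 of the 16, against 6220 of all 12145 genes tested. Sst and Nmb had all 4 ligated libraries below all 4 opposite ones, and 5 members, the 3 called ones with Adcyap1 and Crh, had the reverse. The abundant peptides of uninjured nociceptors did not pass. Calca, which encodes calcitonin gene-related peptide, had 2254 to 4093 FPKM on the ligated and 1964 to 3571 FPKM on the opposite side (difference 0.22 ± 0.27). Tac1, the precursor of substance P, had 610 to 1073 and 642 to 788 FPKM (difference 0.19 ± 0.28). The sides overlapped for both. Bdnf, a growth factor released by nociceptors, had 27.3, 19.4, 25.0 and 28.1 FPKM on the ligated side and 16.6, 7.90, 15.9 and 19.2 FPKM on the opposite side. All 4 ligated libraries lay above, but the difference of 0.76 ± 0.25 did not pass (limma adjusted p = 0.236). Vip and the neuronal tubulin Tubb3 were not analysed here.

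Of 11 neuropeptide receptors 2 were called, both higher, against 0.659% of all genes tested called higher. The list median was 0.42. Cckbr, the cholecystokinin B receptor, had 35.1, 29.3, 27.9 and 13.6 FPKM on the ligated side and was listed at 0 in all 4 opposite libraries (difference 4.70 ± 0.46, limma adjusted p = 1.16e-05). Gpr151 (ENSMUSG00000042816, chromosome 18), an orphan receptor related to the galanin receptors, had 67.0, 35.8, 29.1 and 42.4 FPKM on the ligated side and 1.80, 4.90, 1.44 and 0 FPKM on the opposite side. Its difference was 4.08 ± 0.66 (limma adjusted p = 0.00274), and the sides did not overlap. Galr1, a galanin receptor, differed by -0.70 and was not called.

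Secreted and cell surface genes of the injury response had 7 called members of 26 tested, all higher, against 0.659% of all genes tested called higher. The list median was 0.66. Csf1 (ENSMUSG00000014599, chromosome 3, 107741048 to 107760469, GRCm38) encodes the macrophage colony-stimulating factor through which injured sensory neurons act on spinal microglia. It had 25.0, 19.0, 20.1 and 11.4 FPKM on the ligated side and 1.501, 2.66, 3.11 and 3.10 FPKM on the opposite side. The ratio of means was 7.28 and the difference 2.44 ± 0.32 (limma adjusted p = 0.000246). Ecel1, an endopeptidase also known as a damage-induced neuronal gene, had 14.3, 10.4, 11.1 and 18.7 FPKM on the ligated side, while the opposite side listed it at 0 in 3 libraries and at 0.0347 FPKM in 1 (difference 3.82 ± 0.37, limma adjusted p = 1.02e-05). Chl1, a cell adhesion molecule of the L1 family, differed by 2.11 ± 0.34 (limma adjusted p = 0.00252), and L1cam itself by -0.21, not called. Tnfrsf12a, the receptor of TWEAK, differed by 2.64 ± 0.58 (limma adjusted p = 0.0392), a call lost without ligated library 1 or 2 or opposite library 2 or 3 (adjusted p 0.0783 to 0.159), with only the 8 libraries (limma adjusted p = 0.392) or with a pseudocount of 0.1 (0.141). The other called members were Itga7, a laminin-binding integrin subunit, the heparan sulfate proteoglycan Sdc1 and the membrane metalloprotease Mmp16. Ccl2 and Il6, inflammatory cytokines, differed by 0.91 and 0.86 and were not called. Of 23 axon guidance genes the semaphorin Sema6a was the one called, against 0.659% of all genes tested called higher. Sema6a had 10.3, 7.53, 4.95 and 7.25 FPKM against 0.0509, 0.691, 1.06 and 0.469 FPKM (difference 2.44 ± 0.31, limma adjusted p = 0.000149).

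Amino acid and one-carbon metabolism had 3 called genes of 22 tested, all higher, against 0.659% of all genes tested called higher. Of the 22 differences 21 were above 0, against 48.8% of all genes tested. The list median was 0.64. Bcat1 (ENSMUSG00000030268, chromosome 6, 144993835 to 145076184, GRCm38), the cytosolic aminotransferase of branched-chain amino acids, had 100.2, 59.9, 38.4 and 47.7 FPKM on the ligated side and 3.16, 0.0982, 5.16 and 0 FPKM on the opposite side. Its difference was 4.67 ± 0.52 (limma adjusted p = 5.34e-05). Bcat2, its mitochondrial counterpart, differed by 0.45 and was not called. Phgdh, the first enzyme of serine synthesis, had 39.5, 13.9, 7.66 and 4.23 FPKM on the ligated side, a wide spread, and at most 2.24 FPKM on the opposite side (difference 3.17 ± 0.60, limma adjusted p = 0.0089). Chac1, which degrades glutathione, had 22.7, 26.2, 16.47 and 33.4 FPKM against 4.996, 3.68, 2.88 and 0.703 FPKM (difference 2.76 ± 0.38, limma adjusted p = 0.000467). Mthfd2, a mitochondrial folate enzyme, had 38.7 to 91.0 FPKM on the ligated and 6.25 to 27.2 FPKM on the opposite side without overlap, and just missed the threshold (difference 1.54, limma adjusted p = 0.0673).

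Among apoptosis and DNA damage genes 4 of 20 were called, all higher, against 0.659% of all genes tested called higher. The list median was 0.26. The called members were Gadd45a, Gadd45g, the cell cycle inhibitor Cdkn1a and Ecel1, which is also in the secreted and surface list. Gadd45a, Gadd45g and Cdkn1a are known as stress-response genes. Gadd45g had 205.5, 199.7, 128.5 and 149 FPKM on the ligated side and 78.7, 26.9, 54.7 and 32.6 FPKM on the opposite side (difference 1.90 ± 0.32, limma adjusted p = 0.00384). Gadd45a differed by 1.89 ± 0.33 (limma adjusted p = 0.00438). Cdkn1a differed by 1.10 ± 0.22 (limma adjusted p = 0.0199), a call lost without ligated library 1 or 2 or opposite library 3 or 4 (adjusted p 0.0618 to 0.0826) and with only the 8 libraries (limma adjusted p = 0.0632). Bbc3, a p53 target that promotes apoptosis, differed by -0.49 and was not called. Among 13 immediate early and dissociation genes none was called, with a median of 0.40, and among 19 genes of endoplasmic reticulum stress and protein folding none was called, with a median of 0.10.

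Of 14 annexins, galectins and S100 proteins 3 were called, all higher (list median 0.15), against 0.659% of all genes tested called higher. Anxa1, a phospholipid-binding protein, had 176, 77.6, 35.5 and 56.9 FPKM on the ligated side and was listed at 0 in all 4 opposite libraries (difference 6.20 ± 0.63, limma adjusted p = 1.4e-05). S100a11 was high on both sides, 477, 286, 229.5 and 229 FPKM against 144, 124, 113 and 123 FPKM, a ratio of means of 2.43 (difference 1.21 ± 0.23, limma adjusted p = 0.0101). Lgals1, galectin 1, had a ratio of means of 2.18 (difference 1.12 ± 0.20, limma adjusted p = 0.00576).

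Outside the lists, 4 further genes were among the most different of those above 0 in all 8 libraries. Serpinb1a, an inhibitor of granule proteases, had 244, 160.4, 139 and 192 FPKM on the ligated and 42.0, 9.38, 17.1 and 43.1 FPKM on the opposite side (difference 2.89 ± 0.44, limma adjusted p = 0.00144). Wisp1, a matricellular protein of the CCN family, differed by 2.54 ± 0.47 and Phlda1, a pleckstrin homology-like protein, by 2.38 ± 0.41 (limma adjusted p = 0.00785 and 0.00438). Col5a3, a collagen chain, had 10.8 to 12.9 FPKM against 0.0891 to 2.71 FPKM (difference 2.34 ± 0.52, limma adjusted p = 0.042), and lost its call when any 1 of the 8 libraries was left out (adjusted p 0.0514 to 0.136). The one gene called lower was Trit1, a transfer RNA isopentenyltransferase, with 0.508, 1.22, 1.29 and 0.775 FPKM on the ligated and 5.33, 3.60, 6.05 and 7.02 FPKM on the opposite side. The sides did not overlap (difference -1.73 ± 0.30, limma adjusted p = 0.00438). In the other 12 libraries Trit1 ran from 1.85 to 5.77 FPKM after ligation and from 3.75 to 9.08 FPKM after sham surgery, and its difference there was -0.46.

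**Figure D3:**
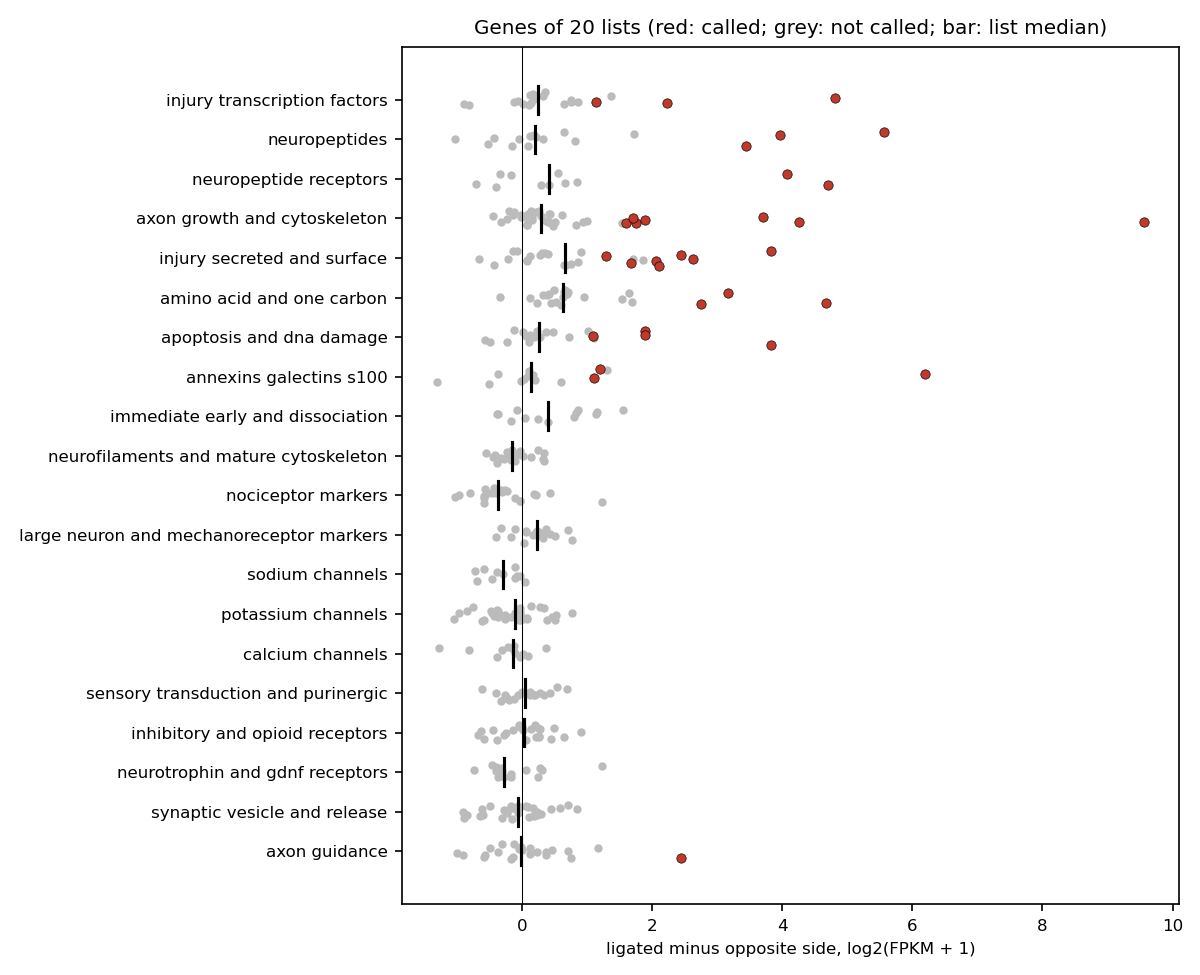
Differences between the sides on the log2(FPKM + 1) scale for the tested members of 20 gene lists, with called genes in red, other genes in grey and a bar at each list's median. The called genes all lie at positive values and in 9 of the lists; the nociceptor, large neuron, channel, opioid receptor and neurotrophin receptor lists have none.

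Markers and channels of mature sensory neurons did not pass the test. Among 22 nociceptor markers none was called. Of the 22 differences 18 were below 0, against 6220 of all 12145 genes tested, and the median was -0.36, against -0.01 for all genes. Scn10a, the tetrodotoxin-resistant sodium channel of nociceptors, had 86.4, 116, 129.8 and 146 FPKM on the ligated and 176, 196, 144 and 196 FPKM on the opposite side (difference -0.59 ± 0.20, limma adjusted p = 0.265). The ranges overlapped at a single library of each side. Mrgprd, a receptor of non-peptidergic nociceptors, had 137, 169.9, 186 and 188 FPKM against 286, 196, 252.5 and 287 FPKM (difference -0.57 ± 0.23, limma adjusted p = 0.386). Together with Mrgprd, the peptide gene Sst and the channel Scn11a had all 4 ligated libraries below all 4 opposite ones, an arrangement found in 1.78% of all genes tested; Sst and Scn11a are named here after their values were seen. Trpv1, the capsaicin receptor, had 88.9 to 150.1 FPKM on the ligated and 40.99 to 100.7 FPKM on the opposite side (difference 0.44 ± 0.32, limma adjusted p = 0.673). In bulk libraries fewer cells of a type and less RNA per cell cannot be told apart.

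No gene was called in either direction among 11 sodium channels (median -0.28), 35 potassium channels (median -0.10), 12 calcium channels (median -0.13) or 24 inhibitory and opioid receptors (median 0.04). Of the 11 sodium channel differences 10 were below 0, against 6220 of all 12145 genes tested. Kcna2, a potassium channel subunit, had 2.95 to 7.79 FPKM on the ligated and 4.18 to 13.6 FPKM on the opposite side (difference -0.17 ± 0.38). Oprm1, the mu opioid receptor, had 6.38 to 9.03 and 2.39 to 21.01 FPKM (difference 0.20 ± 0.44). Cacna2d1, the calcium channel subunit to which gabapentin binds, had 21.7 to 34.6 FPKM on the ligated and 13.3 to 53.7 FPKM on the opposite side (difference 0.37 ± 0.35). The sides overlapped for all 3, and the highest level was in opposite library 2 each time. Gch1, the first enzyme of tetrahydrobiopterin synthesis, was low throughout, at 0.163 to 1.39 FPKM against 0.205 to 7.32 FPKM (difference -0.43 ± 0.50, limma adjusted p = 0.797). At these standard errors small differences could not be detected, and a p above the threshold does not show that levels were the same.

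The 4 ligated libraries differed in their levels of these genes. Among the 80 genes library 1 was the highest of the 4 in 48, against 22.9% of all genes tested. Library 3 was the lowest in 38 (47.5%), against 23.1% of all genes, and library 4 in 30 (37.5%), against 28.1%. For example, Gal ran from 753 FPKM in library 4 to 2284 FPKM in library 1, and Anxa1 from 35.5 FPKM in library 3 to 176 FPKM in library 1. The share of injured neurons in each library was not measured. Without ligated library 1, 61 genes were higher and 4 lower, and 57 of the 81 calls were shared. Across all 8 fits that each left out 1 library, 53 of the 80 genes stayed called higher, among them Atf3, Sox11, Gal, Npy, Nts, Gpr151, Sprr1a, Gap43, Csf1, Bcat1 and Anxa1.

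**Figure D4:**
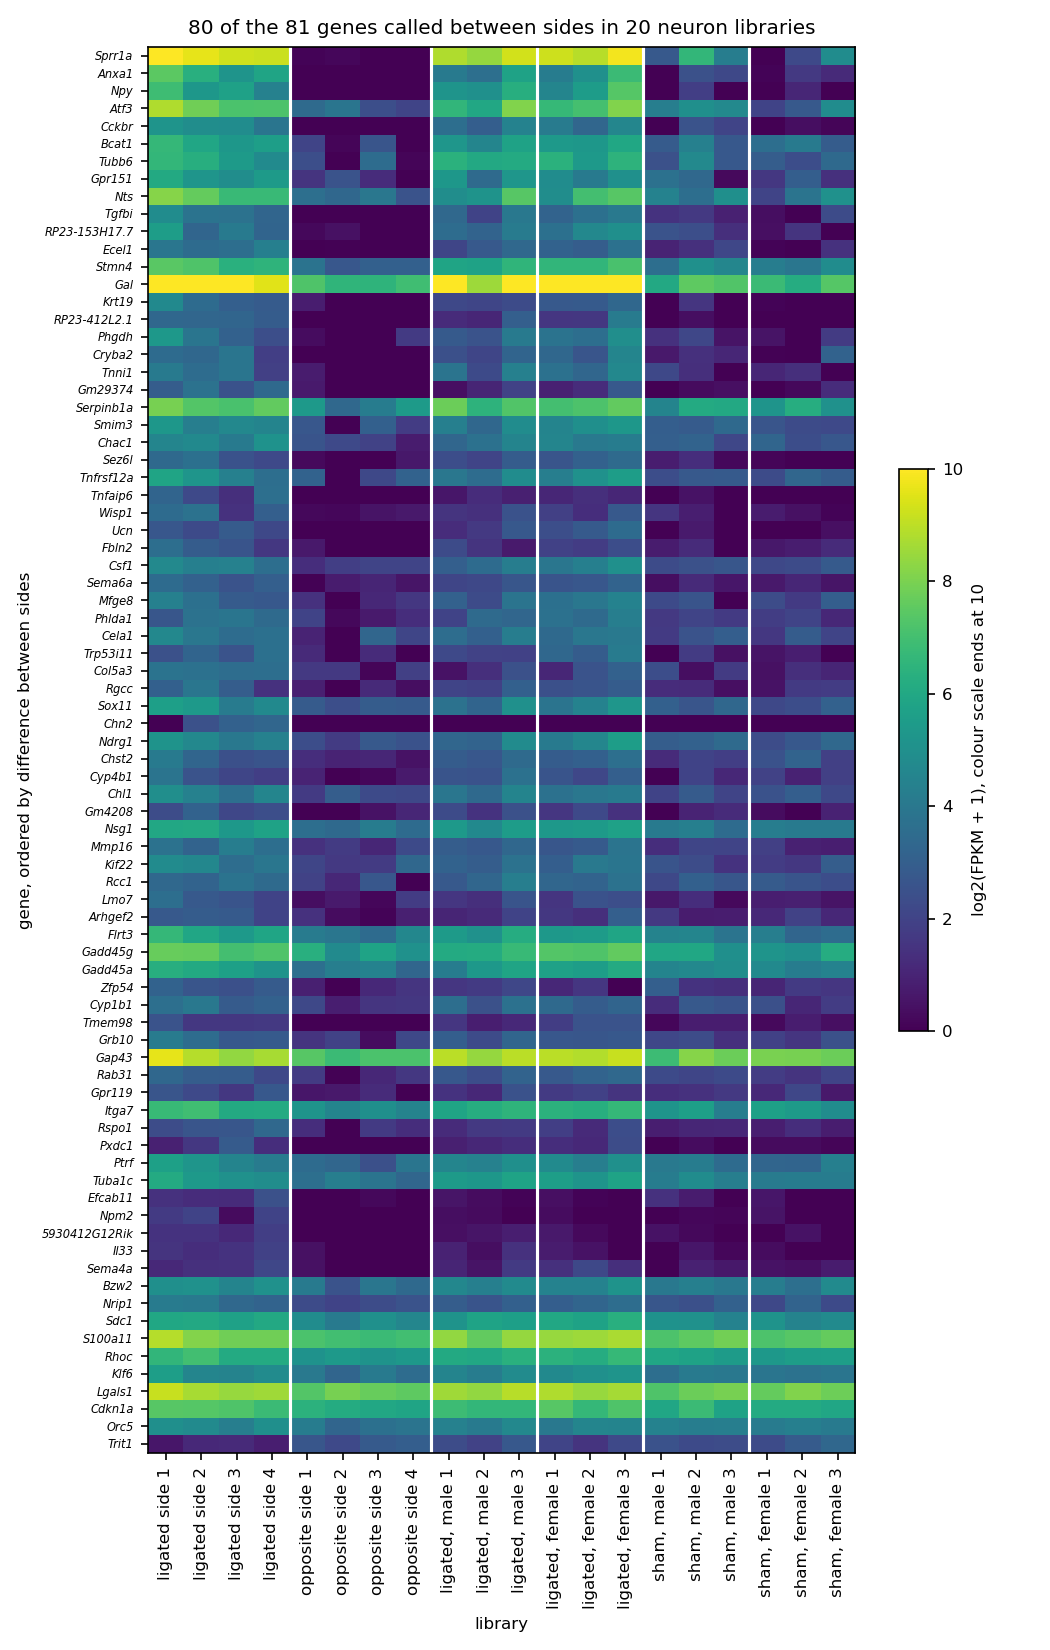
Levels of 80 of the 81 called genes (rows, ordered by the difference between sides) in the 20 neuron libraries (columns), as log2(FPKM + 1) with the colour scale ending at 10. The opposite side columns are dark for most genes, with 13 of the 80 higher genes at 0 in all 4.

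The other 12 neuron libraries share no library with the 2 sides. Both comparisons came from the same fit, however, and share its estimate of each gene's spread, so their p-values are not independent. A fit on only these 12 libraries called 31 genes, 27 of them shared with the 34 given next. There 34 genes were called higher after ligation than after sham surgery (0.28%) and 0 were called lower, with 435 genes (3.58%) at an unadjusted p under 0.05 in limma. Of the 80 genes, 77 (96.2%) had a positive difference there, against 43.1% of all genes tested; Chn2, Zfp54 and Efcab11 were the exceptions. An unadjusted p under 0.05 with a higher level after ligation was reached by 68 of the 80 (85.0%), against 2.33% of all genes, and 32 were called, which is 40.0% of the 80 and 94.1% of the 34. In 41 of the 80 (51.2%) all 6 ligated libraries lay above all 6 sham libraries, against 0.692% of all genes. The 2 genes called there but not between sides were Cd63 and Sectm1b.

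Gal had 373 to 2248 FPKM in the 6 other ligated libraries and 63.9 to 183.5 FPKM in the 6 sham libraries, a difference of 3.19 (limma adjusted p = 0.000162) beside 3.45 between sides. Npy had 22.6 to 162 FPKM after ligation and 0 to 2.63 FPKM after sham (difference 5.16, limma adjusted p = 1.14e-05). Sprr1a was at 0 to 96.5 FPKM after sham surgery, with a median of 12.04, and had 339 to 916 FPKM after ligation, so that its difference was 5.63 (limma adjusted p = 0.000117) beside 9.56 between sides. Atf3 had 3.05 to 30.2 FPKM in sham libraries, with a median of 21.7, and differed by 3.15 there (limma adjusted p = 0.00178). Bcat1, Gpr151 and Nts had positive differences of 1.95, 2.43 and 2.13 that did not pass (limma adjusted p = 0.0644, 0.0692 and 0.164).

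For the 80 genes the difference between sides was larger than the one between ligation and sham in every case, as can follow from choosing them in the first comparison. Among the 34 genes chosen in the other 12 libraries the difference between sides was larger in 32 (94.1%), against 53.0% of all genes tested, with medians of 2.47 and 2.04. The opposite side mean lay under the sham mean in 28 of the 34 (82.4%), against 47.1% of all genes tested, and the ligated side mean over the other ligated mean in 29 (85.3%), against 55.6%. Tested gene by gene, 0 genes differed between the effects (0.0%; limma, smallest adjusted p = 1.0), and 405 (3.33%) had an unadjusted p under 0.05. Summed mitochondrially encoded transcripts ran from 450 to 12300 FPKM in the other 12 libraries and from 5810 to 11500 FPKM in the 8, so the libraries differ in more than surgery; its part in these differences was not tested.

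**Figure D5:**
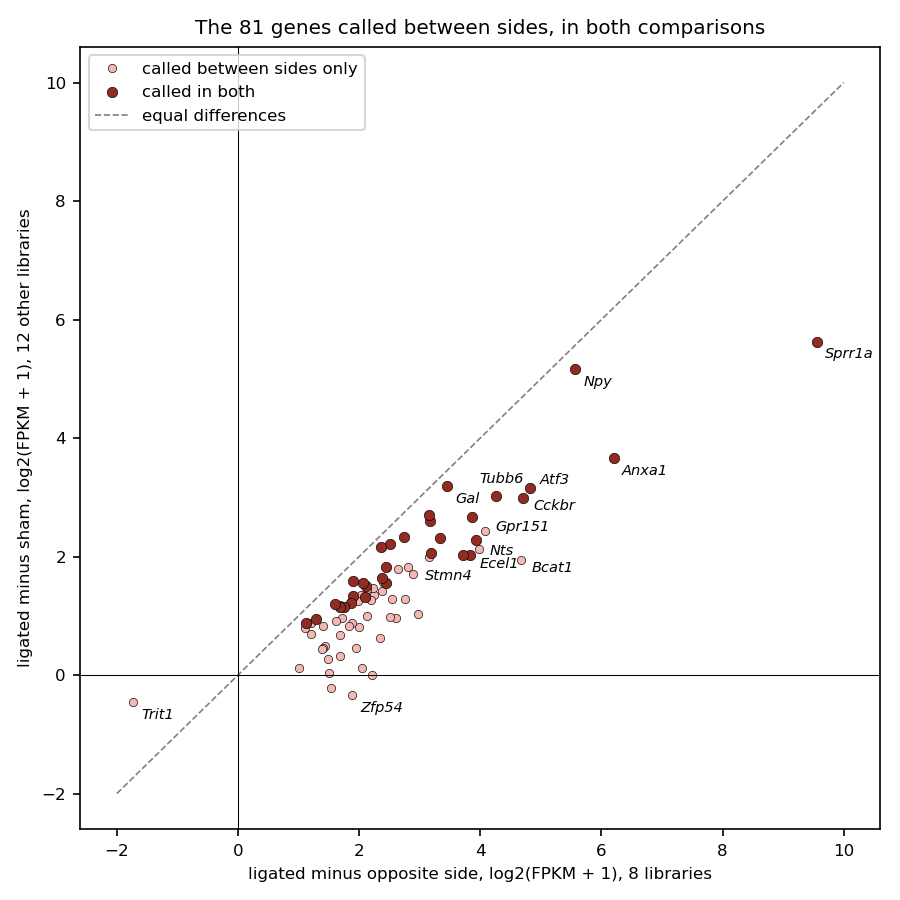
The 81 genes called between sides: difference between ligated and opposite side (horizontal axis, 8 libraries) against difference between ligation and sham surgery (vertical axis, 12 other libraries), both on the log2(FPKM + 1) scale. The 32 higher genes called in both are dark red, and all 80 higher genes lie under the dashed line of equal differences.

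Among markers of other cell types no gene was called. The summed markers overlapped between the sides for each of these cell types except neutrophils. Of single markers, Ly6g and Dcn lay higher in all 4 ligated libraries and Egfl7 lower in all 4. These arrangements were found in 2.68% and 1.78% of all genes tested. Of 15 satellite glial markers 5 were in the table, summing to 62.9 to 88.4 FPKM on the ligated and 49.9 to 97.8 FPKM on the opposite side. Myelinating Schwann cell markers, 8 of 12, summed to 1160 to 1560 and 736 to 1760 FPKM. Macrophage markers, 2 of 14, stayed at or under 2.43 and 8.23 FPKM. Endothelial markers, 8 of 11, summed to 44.1 to 77.6 and 59.3 to 148 FPKM. Red cell genes were abundant on both sides, at 10800 to 24200 and 4090 to 19000 FPKM. All 6 differences were above 0, against 48.8% of all genes tested, with a median of 0.53. Neutrophil markers, 3 of 8, summed to 0.451 to 7.94 FPKM on the ligated side and were at 0 in all 4 opposite libraries; their part in the results was not tested. The 11 mitochondrially encoded and 22 interferon and class I genes tested had no called member. Nor had 5 female and male transcripts, which summed to 31.5 to 42.2 FPKM on the ligated and 25.7 to 43.3 FPKM on the opposite side. Of these, Uty lay lower in all 4 ligated libraries than in all 4 opposite ones. Whether the sexes differ between the sides was not tested.

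The authors' deposited table of neurons at 8 days, whose libraries are not stated, was read for the same genes. Its header names no direction, and its signs were turned to match the FPKM differences of ligation minus sham, so its directions say nothing beyond those differences. Of the 80 genes, 79 had an adjusted p-value in the authors' deposited table, 63 of them under 0.05. Among all 12145 genes tested here, 228 were under 0.05 there. Whether that table shares libraries with those used here is not known. The mean normalised count in the authors' deposited table ran from 12.9 to 13515 for the 80 genes with a median of 450, and 7 genes lay under 50. In the authors' deposited table Atf3 had a log2 fold change of 2.27, Gal 2.72 and Csf1 1.92, while Sprr1a had 0.61 with an adjusted p of 0.115. These fold changes come from counts and are not on the log2(FPKM + 1) scale, where Sprr1a differed by 5.63 between ligation and sham. The cause of that gap was not tested. Jun and Bdnf, not called between the sides, had log2 fold changes of 0.93 and 0.61 there, with authors' adjusted p of 0.00949 and 0.0136. Scn10a, Mrgprd, Calca, Tac1, Trpv1, Nefh, Kcna2, Oprm1, Cacna2d1 and Gch1, also not called, were above 0.05 there.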

How the data were processed

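RNA was sequenced over 2 lanes per neuron library, per the labels. Per the submitters' processing notes, STAR, SAMtools, Cufflinks and DESeq2 were used with mouse build mm10; versions, order and roles are not given in the sources used here. The authors deposited FPKM per gene, without read counts, so the depth of each library is not known and counting error cannot be stated. The table has 12181 lines; lines sharing an identifier (20) were summed to 12170 genes, each at 1 FPKM in at least 2 libraries, and 12121 matched GENCODE M21. The authors' second table gives, per the file headers, a baseMean (a signal: the mean of counts divided by size factors), log2 fold changes, standard errors and p-values. Its header names no direction: all 228 genes past an adjusted p of 0.05 that were tested here changed in the other direction by FPKM, so its folds are given with the sign turned.

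FPKM were tested as log2(FPKM + 1) with limma 3.58.1 in R 4.3.3 (trend, two-sided) in 1 fit of 20 libraries in 6 groups, keeping 12145 genes at 1 FPKM or more in at least 3 libraries, with Benjamini-Hochberg adjustment. The fit was tested on simulated data. Ligated against sham took the mean of the male and female differences. Since no label ties libraries to animals, p-values measure only the spread between libraries. Whether counting used strand is not given in the sources used here.

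The members and gene lists were chosen with earlier results of these data known. Genes named are 4 markers, up to 12 called genes per direction with the largest difference, no overlap between sides and no zeros, up to 4 called members per list and direction, 21 fixed genes whatever their result, and 3 called genes at 0 on one side; others named were chosen after their values were seen. Python 3.11.15, pandas 2.3.3 and Matplotlib 3.10.9 made the tables and figures. Alternatives were other pseudocounts, filters, normalization, weights, no trend, fewer libraries and each library left out. Values of some single genes are not reported here.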

Additional observations from a re-analysis of the deposited data

Results flagged for a closer look

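Of 88 groups of 4 libraries examined for the named genes, 5 held a library far from the other 3, and chance sets apart about 1 group in 20. On the opposite side the highest library stood alone for Ecel1 at 0.0347 FPKM, Phgdh at 2.24 FPKM, Gch1 at 7.32 FPKM and Kcna2 at 13.6 FPKM. On the ligated side it did so for Trpv1 at 150.1 FPKM. For Ecel1, Gch1 and Kcna2 the library was opposite library 2, for Phgdh it was opposite library 4, and for Trpv1 it was ligated library 1.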

How the results depend on the processing

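Between sides, 81 genes were called. The fit on only the 8 libraries compared called 30, and only genes above 0 in every library, an alternative chosen after seeing the data, called 38 (37 higher, 1 lower; 37 shared), where fewer genes were tested. Pseudocounts of 0.1 and 5, other filters, quantile normalization, array weights and no trend gave 62 to 95. Leaving out 1 library gave 62 to 119 calls, 1 to 12 of them lower. For ligated against sham, 34 genes were called, 19 with only genes above 0 in every library, and 21 to 39 with 1 library left out, the lowest without male ligated library 3. The difference of the effects gave 0 genes, and 0 to 1 with 1 library left out (1 without ligated library 1 or 3). Of 32 named genes that were called, 17 stayed called in every alternative that tested them, and 15 lost the call with only the 8 libraries: Wisp1, Phlda1, Col5a3, Trit1, Klf6, Tubb6, Flrt3, Tnfrsf12a, Chl1, Phgdh, Gadd45g, Gadd45a, Cdkn1a, S100a11 and Lgals1 (limma adjusted p 0.0511 to 0.394). Of these, Klf6 also lost it with quantile normalization, array weights and only genes above 0 in every library, Col5a3 with quantile normalization, a pseudocount of 0.1 and the filter of 5 FPKM, and Tnfrsf12a with a pseudocount of 0.1. The cause was not tested. Changes of sign occurred only in genes not called: with array weights Gch1 was 0.149, Calca -0.014 and Kcna2 0.183; without opposite library 2 Gch1 was 0.20 and Kcna2 0.19; without ligated library 3 Kcna2 was 0.05; Oprm1 was -0.06 without opposite library 3 and -0.20 without opposite library 4. With 1 library left out Gch1 ran from -0.732 to 0.197, Kcna2 from -0.339 to 0.194 and Oprm1 from -0.201 to 0.698. No paired analysis was possible because the columns of the neuron table carry a group but no replicate number, so the replicate block was not run. Without read counts, the precision of genes at low FPKM is unknown.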

Other observations

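Among the 80 genes higher on the ligated side, 2 pairs lay within 10000 bases of each other in GENCODE M21 (GRCm38). Gm29374, a long intergenic RNA on chromosome 1, starts 671 bases beyond the end of Ecel1 on the same strand, and had 6.66, 12.5, 4.80 and 9.59 FPKM on the ligated side against 0.668, 0, 0 and 0 FPKM (difference 2.97 ± 0.44, limma adjusted p = 0.000934). Its level beside that of Ecel1 could include reads of either gene, which was not tested. Wisp1 and Ndrg1 on chromosome 15 face each other 6116 bases apart, and Ndrg1, a stress-regulated gene, differed by 2.20 ± 0.39 (limma adjusted p = 0.00526).

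Several genes better known from other tissues were among the 80, named here after their values were seen. Krt19, a keratin of simple epithelia, had 26.0, 10.4, 7.16 and 6.34 FPKM on the ligated side and was listed at 0 in 3 opposite libraries and at 0.746 FPKM in 1 (difference 3.34 ± 0.40, limma adjusted p = 0.000109). Tnni1, the slow skeletal muscle troponin I, had 15.7, 10.4, 13.9 and 2.71 FPKM against 0.708, 0, 0 and 0 FPKM (difference 3.15 ± 0.56, limma adjusted p = 0.00502). Cryba2, a lens crystallin, had 10.4, 9.26, 13.9 and 2.64 FPKM and was listed at 0 in all 4 opposite libraries (difference 3.16 ± 0.59, limma adjusted p = 0.00854). Ucn, the peptide urocortin, had 5.52, 3.75, 6.35 and 3.54 FPKM and was listed at 0 in all 4 opposite libraries (difference 2.50 ± 0.34, limma adjusted p = 0.000312). In the other 12 libraries Krt19, Tnni1 and Ucn were also called higher after ligation (differences 2.32, 2.71 and 2.21; limma adjusted p = 0.0012, 0.0065 and 0.000333), and Cryba2 was not (1.99, limma adjusted p = 0.135).

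Some genes in the table switch between 0 and a steady level from library to library, named here after their values were seen. Yam1 had 18490 to 29090 FPKM in the 4 ligated libraries and 23870, 27750 and 24600 FPKM in opposite libraries 1, 3 and 4, but was listed at 0 in opposite library 2; its difference of 3.53 was not called (limma adjusted p = 0.747). Rn18s-rs5, a ribosomal RNA gene, was also at 0 in opposite library 2 and at 10640 FPKM or more in the other 7. Cluap1, a cilium gene, had 21.3, 27.6, 12.4 and 22.6 FPKM on the ligated side and 0 in all 4 opposite libraries, yet across the other 12 it was at 0 in some ligated and some sham libraries and reached 26.6 and 22.6 FPKM in others; its difference of 4.40 was not called (limma adjusted p = 0.117). Chn2, which encodes a chimaerin and was called, had 0, 4.55, 7.62 and 8.77 FPKM on the ligated side and was listed at 0 in the opposite side libraries and in the other 12. Yet its mean normalised count in the authors' deposited table was 176.3. The zeros of Chn2 are therefore not evidence that the gene was silent, and its call rests on them. The called genes Anxa1, Npy and Cckbr, at 0 in the opposite side libraries, reached intermediate levels of up to 4.59, 2.63 and 4.93 FPKM in sham libraries.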
